A study of Mus musculus with 514 samples.

Results

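The comparison rests on 15 libraries of single mouse embryos at the 4-cell stage, of 514 samples in the series: 10 embryos of the genotype mz_DKO against 5 of the genotype mz_NrKO. They were chosen by the genotype and stage given in the sample labels, and by having full-length reads. The study sequenced polyA RNA of 2-cell, 4-cell and 8-cell embryos with a protocol derived from FLASH-seq, a full-length single-cell method, and split the reads of each library into 5' reads with a molecular identifier (UMI) and reads along the whole transcript. In the labels, mz stands for maternal and zygotic, NrKO for the Nr5a2 knockout, EKO for the Esrrb knockout and DKO for the double knockout. The label mz_DHet is read here as heterozygous for both genes and served as the control. Late 2-cell embryos labelled z_NrHet, read here as heterozygous for Nr5a2, served as earlier controls where genes are grouped by their course in development.

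Loss of Nr5a2 is common to both genotypes, so the comparison asks what loss of Esrrb adds to it. The other 4-cell groups were 6 mz_DHet and 4 mz_EKO embryos, and they give a loss of Esrrb without the Nr5a2 knockout. The group labels do not give the Nr5a2 alleles of mz_EKO or the Esrrb alleles of mz_NrKO. The gene dose at the start of each comparison may therefore differ. Embryos were collected on 17 June 2022 (5 mz_DHet, 1 mz_EKO, 2 mz_NrKO, 9 mz_DKO) or 22 May 2022 (1 mz_DHet, 3 mz_EKO, 3 mz_NrKO, 1 mz_DKO). Genotype and collection date were therefore unbalanced. Each genotype was present on both dates, but mz_DKO had only 1 embryo on 22 May. Unless stated otherwise, log2 differences are fitted within date. Means, SDs, medians and ranges in TPM, and counts of embryos above or below others, pool both dates. The Cre driver, the deleted exons, the mothers and the litters are not given in the sources used here. A library is 1 whole embryo, so fewer cells and less RNA per cell cannot be told apart.

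Nr5a2 and Esrrb are orphan nuclear receptors, zinc-finger transcription factors that can bind DNA as monomers. Both recognise the nuclear receptor half-site AGGTCA extended at its 5' end, so that a sequence such as TCAAGGTCA can be read by either. Esrrb is best known from the pluripotency network of embryonic stem cells and, as a member of the estrogen-related receptor (ERR) family, from control of mitochondrial energy genes. Nr5a2 is known for bile acid and steroid genes in adult tissues and for maintaining Oct4 (Pou5f1) in the early embryo.

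Esrrb, the gene lost in mz_DKO only, had a median of 2.88 TPM in mz_DKO against 14.3 TPM in mz_NrKO in the 5' reads. TPM is a length-normalised share of transcripts. Neither read type passed the test across all genes. In the 5' UMI reads Esrrb measured 11.9, 21.7, 20.1, 0 and 14.3 TPM in mz_NrKO replicates 1 to 5. The 10 mz_DKO embryos had 0.335 to 4.88 TPM. Replicates 1, 2, 3 and 5 of mz_NrKO lay above every mz_DKO value, and replicate 4 lay below all of them. The difference within date was -2.18 ± 0.669 on the log2(TPM + 1) scale (limma, ± standard error; adjusted p = 0.9995). An exact permutation test over embryos within date gave a two-sided p = 0.0273 for this gene, or 0.295 adjusted over the 13 library measures tested that way. Mean Esrrb UMI levels were 13.9 ± 9.27 TPM (SD, n = 6) in mz_DHet and 3.01 ± 2.02 TPM (SD, n = 4) in mz_EKO. Within date, mz_EKO differed from mz_DHet by -0.94 ± 0.787 (limma, adjusted p = 0.860).

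Full-length reads of Esrrb separated the genotypes less. The mz_NrKO embryos had 12.8, 32.8, 28.5, 9.89 and 12.9 TPM, against 3.05 to 26.4 TPM in mz_DKO with a median of 8.64. The groups overlapped, and the difference was -1.01 ± 0.474 (limma, adjusted p = 0.9999; exact permutation p = 0.0591). In mz_EKO the full-length values were 8.12, 15.4, 26.4 and 4.59 TPM, against 8.17 to 27.2 TPM in mz_DHet. Transcripts of the targeted gene thus remained in the full-length reads of both genotypes that lack Esrrb. Genotyping primers were added during cDNA amplification, per the labels' protocols, and their part in these reads was not tested. At the 8-cell stage the 5' reads separated the genotypes fully. They gave 46.5 to 79.7 TPM in 5 mz_NrKO embryos and 1.83 to 4.78 TPM in 9 mz_DKO embryos (-3.76 ± 0.303, limma, adjusted p = 3.77e-11). Full-length reads at that stage overlapped, with 8.47 to 107 TPM in mz_NrKO and 4.98 to 42.6 TPM in mz_DKO. The full-length difference was -1.08 ± 0.282 and did not pass (limma, adjusted p = 0.0925).

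Nr5a2 transcripts were abundant in both genotypes. The mz_NrKO embryos measured 762, 761, 512, 590 and 923 TPM in full-length reads, and the mz_DKO embryos 428 to 1120 TPM with a median of 736. Controls gave a mean of 626 ± 140 TPM (SD, n = 6). The 5' reads gave 393 to 809 TPM in mz_NrKO and 335 to 1020 TPM in mz_DKO. Total transcript level of Nr5a2 therefore does not check the label of either genotype, because the sources used here do not say which part of the gene was deleted. The difference between the genotypes was -0.17 ± 0.21. Esrra, the ERR family member that drives oxidative metabolism in many adult tissues, differed by 0.29 ± 0.425 and Esrrg by -0.43 ± 0.595. The plot of Esrrb and Nr5a2 by embryo shows both read types.

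**Figure D1:**
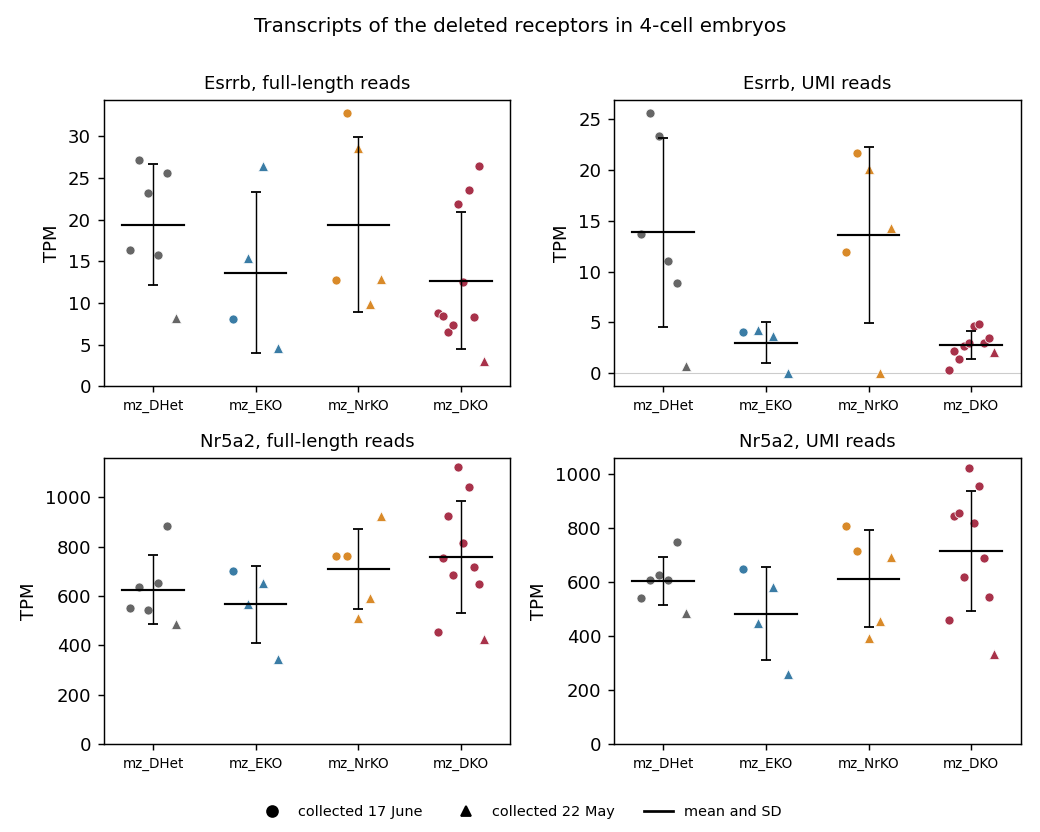
Esrrb and Nr5a2 in single 4-cell embryos, in TPM of 5' UMI reads and of full-length reads. Each point is 1 embryo, grouped by genotype and marked by collection date. Esrrb in UMI reads is at 4.88 TPM or lower in all 10 mz_DKO embryos, while full-length Esrrb and both measures of Nr5a2 overlap between mz_NrKO and mz_DKO.

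No gene passed the test between mz_DKO and mz_NrKO at the 4-cell stage. With limma on log2(TPM + 1), 0 of 13044 genes tested had an adjusted p under 0.05 in either direction (0%), and the smallest adjusted p was 0.9999. At an unadjusted p under 0.05 there were 385 genes, or 2.95%, where that threshold alone lets through 652. The same fit on the 5' reads called 0 of 10695 genes, with 310 (2.9%) at an unadjusted p under 0.05. Over all genes tested the median difference was -0.02, and 866 genes differed by more than 1 on the log2 scale.

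The precision of a missing call depended on expression level. The median standard error was 0.475 over all genes and 0.24 over the 2693 genes with a mean of at least 100 TPM. For 34.5% of all genes the 95% confidence interval of the difference lay within a 2-fold change in either direction, and for 81.1% within a 4-fold change. Among genes of at least 50 TPM the first share was 78.1%, and among those of at least 100 TPM it was 85.7%. For most genes of low expression the interval thus reached beyond a 2-fold change. These shares do not say which differences could pass after adjustment over 13044 genes. Rgs11, with a mean of 73.9 TPM in mz_NrKO and a difference of -1.57 ± 0.388, did not pass. Collection date itself was associated with 2100 of the 13044 genes in the same fit (16.1%), of which 1283 were higher on 17 June.

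Genes with the smallest unadjusted p are given as values, since none passed. Rgs11, which encodes a GTPase-activating protein for G-protein alpha subunits, had the smallest p of the named genes. Its levels were 68.1, 52.9, 120, 88.6 and 39.9 TPM in mz_NrKO, and 8.27 to 52 TPM with a median of 20.8 in mz_DKO. In Rgs11, 9 of the 10 mz_DKO embryos lay below every mz_NrKO embryo, and the difference was -1.57 ± 0.388 (limma, unadjusted p = 0.000376, adjusted p = 0.9999). Rgs11 in mz_EKO and mz_DHet averaged 95.3 ± 33.4 (SD, n = 4) and 74.3 ± 37.4 TPM (SD, n = 6).

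Other genes with negative differences are given in turn. Dpagt1, the enzyme that starts dolichol-linked N-glycan assembly in the endoplasmic reticulum, averaged 21.1 ± 7.53 TPM (SD, n = 5) in mz_NrKO and 6.58 ± 3.89 TPM (SD, n = 10) in mz_DKO, a difference of -1.48 ± 0.47. In mz_DHet it averaged 50.8 ± 18.7 TPM (SD, n = 6) and in mz_EKO 42.6 ± 22.3 TPM (SD, n = 4). Man2c1, a cytosolic alpha-mannosidase, averaged 33.7 ± 10.7 TPM in mz_NrKO and 9.8 ± 5.7 TPM in mz_DKO (-1.29 ± 0.426), with 14 ± 10.1 TPM in mz_DHet. The tRNA methyltransferase gene Trmt10a differed by -1.16 ± 0.348, the basement membrane gene Nid2 by -1.28 ± 0.409 and the prostaglandin reductase gene Ptgr1 by -1.87 ± 0.597. Zfp708, a zinc-finger gene, differed by -1.57 ± 0.451 and the long noncoding RNA Platr14 by -1.11 ± 0.34. Slc25a53, of the mitochondrial carrier family, differed by -2.49 ± 0.821. The small nucleolar RNA Snora34 differed by -3.02 ± 1.01 in full-length reads and by 0.85 in UMI reads, so its direction turned with the read type.

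At the other end stood Selenos, which encodes an endoplasmic reticulum selenoprotein that takes part in removal of misfolded proteins. Its levels were 736, 777, 628, 619 and 583 TPM in mz_NrKO and 737 to 1170 TPM, median 913, in mz_DKO. For Selenos, 9 of 10 mz_DKO embryos lay above every mz_NrKO embryo (0.43 ± 0.143; limma, adjusted p = 0.9999). Wdr92, a WD-repeat protein linked to dynein assembly, measured 26.7, 50.3, 35.6, 56.1 and 53 TPM in mz_NrKO and 50.1 to 110 TPM, median 78.4, in mz_DKO. The 1 mz_DKO embryo of 22 May had the lowest of these, at 50.1 TPM, and lay within the mz_NrKO range.

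Other genes with positive differences did not pass either. Crem, a cAMP-responsive transcription factor, averaged 10.5 ± 5.29 TPM in mz_NrKO and 24.2 ± 9.54 TPM in mz_DKO (1.32 ± 0.424). Srebf1, which drives fatty acid and sterol synthesis genes, averaged 6.86 ± 5.02 and 15.4 ± 5.49 TPM (1.5 ± 0.53). In mz_EKO Srebf1 averaged 6.85 ± 3.54 TPM and in mz_DHet 16.3 ± 6.73 TPM. Rnf2, the catalytic E3 ligase of Polycomb repressive complex 1, averaged 341 ± 52.2 and 459 ± 77.3 TPM (0.47 ± 0.173). The SRF coactivator Mrtfa differed by 1.11 ± 0.337, the snRNA transcription factor subunit Snapc2 by 0.71 ± 0.229 and the splicing factor Phf5a by 0.42 ± 0.157. The NEDD8-conjugating enzyme Ube2f differed by 1.74 ± 0.611 and the lysosomal membrane protein Gpr137b by 0.59 ± 0.219. All 20 genes had the same sign on both dates, because the rule that chose them asked for it.

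**Figure D2:**
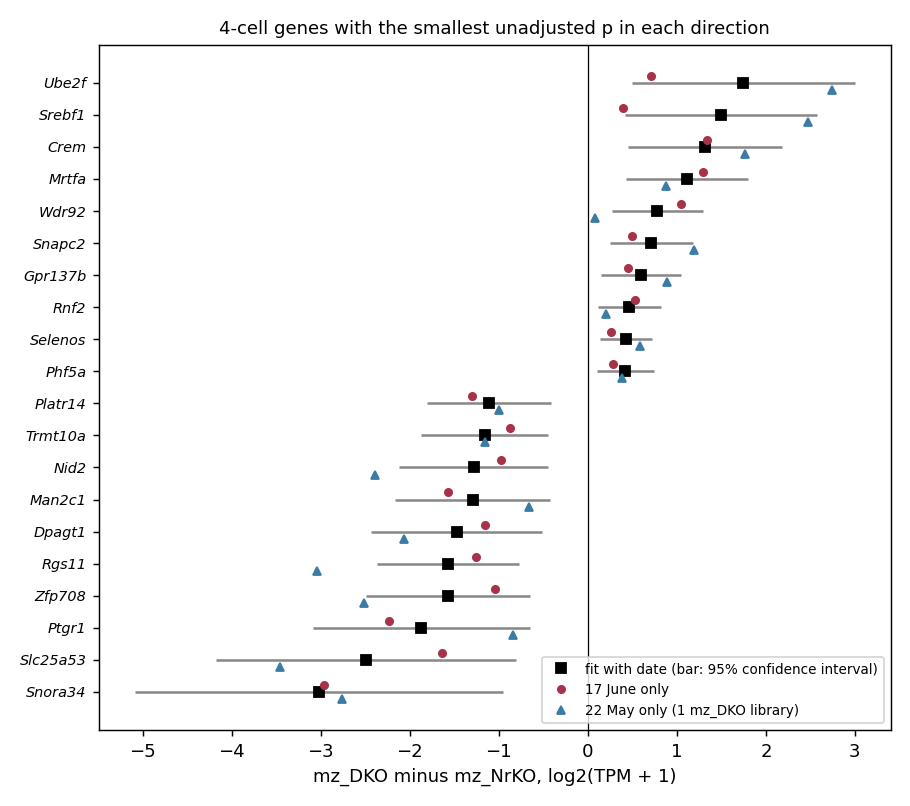
The 10 named genes with the smallest unadjusted p in each direction, as mz_DKO minus mz_NrKO in log2(TPM + 1). Squares with bars are the fit with date and its 95% confidence interval, circles the 17 June embryos alone and triangles the 22 May embryos alone, where mz_DKO has 1 library. None of the 20 passed after adjustment over 13044 genes. On 22 May alone Wdr92 lies near 0, at 0.08, and Rgs11 lies at -3.04.

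Groups of genes tied to the receptors showed no called member, and 0 genes passed in any of the 28 lists examined. Of the nuclear receptors and partners, 22 of 34 were tested, 12 had a positive difference and the median was 0.08, against 47.4% positive and a median of -0.02 over all genes tested. Within that list Rxra, the obligate partner of many nuclear receptors, differed by 1.86 ± 0.765, and its mz_DKO mean of 66.6 TPM had an SD of 142. Ppard, the fatty acid receptor PPAR delta, differed by 0.54 ± 0.346. Of the Esrrb-linked pluripotency network, 29 members were tested and 11 were positive, with a median of -0.12. Sall4, a zinc-finger factor of that network, averaged 150 ± 21.5 TPM in mz_NrKO and 108 ± 30.1 TPM in mz_DKO (-0.36 ± 0.247). Dppa4 differed by -0.18 ± 0.136 and Fgf4 by -0.44 ± 0.358. Pou5f1 averaged 72.6 ± 28.1 TPM (SD, n = 5) and 71.3 ± 48.3 TPM (SD, n = 10).

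Mitochondrial genes, the class most often tied to the ERR family, lay close to the background. Of 35 tested energy targets, 14 were positive, with a median of -0.10. The fatty acid oxidation genes Acadvl and Etfb differed by -1.36 ± 0.706 and -0.67 ± 0.385, and Idh3a of the citric acid cycle by 0.60 ± 0.35. Of 50 tested oxidative phosphorylation subunits, 29 were positive, with a median of 0.03. For 35 of these the confidence interval lay within a 2-fold change. The ATP synthase subunit gene Atp5g1 differed by -0.40 ± 0.175. Of 29 tested genes of glycolysis and pyruvate use, 10 were positive and the median was -0.17. Pdhb, a subunit of pyruvate dehydrogenase, averaged 460 ± 97.8 TPM in mz_NrKO and 385 ± 46.1 TPM in mz_DKO (-0.45 ± 0.162), and the kinase of that complex Pdk3 differed by -1.46 ± 0.665.

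DNA replication genes had the most one-sided signs among the lists of 50 or more tested genes. Of the 52 tested, 12 were positive, with a median of -0.17, and none passed. Prim1, a primase subunit, differed by -0.56 ± 0.284, the polymerase delta subunit gene Pold2 by -0.66 ± 0.372 and Timeless, of the fork protection complex, by -0.55 ± 0.315. The median of the same list between mz_EKO and mz_DHet was 0.10. The median of this list in single embryos varied by 0.215 (SD) between embryos of 1 genotype, with both dates pooled. That is a spread of single embryos, and no standard error of the list's difference between the genotypes was computed. Of the 60 tested mitosis genes, 34 were positive (median 0.05), and 46 intervals lay within a 2-fold change. Cdc25b, the phosphatase that activates CDK1, differed by -1.44 ± 0.632 and the mitotic kinase Aurka by 0.64 ± 0.311. Of 50 tested DNA repair genes, 23 were positive, and the helicase gene Ercc2 differed by -0.83 ± 0.394.

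Targets of Nr5a2 known from liver and steroid tissues were mostly under the expression filter, with 7 of 26 tested. Among these 1 was positive and the median was -0.37, against 0.46 between mz_EKO and mz_DHet. Ccnd1, a G1 cyclin, differed by -0.76 ± 0.455. Of 25 tested cholesterol synthesis genes 9 were positive, and the sterol regulator Srebf2 differed by -1.17 ± 0.512 while its relative Srebf1 differed by 1.5 ± 0.53. Of 19 sphingolipid genes 8 were positive, of 28 FGF, ERK and Nodal genes 14, of 49 chromatin genes 29 and of 23 apoptosis genes 8. Chaf1a, a histone chaperone subunit that acts at replication forks, differed by -0.60 ± 0.26.

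Growth and ribosome genes were the most precisely measured lists. Of 57 ribosome biogenesis genes, 31 were positive (median 0.02), and 53 intervals lay within a 2-fold change. Of 55 cytosolic ribosomal protein genes, 25 were positive (median -0.03), with 50 intervals within that range. The pre-rRNA processing genes Ddx47 and Utp14a differed by -0.37 ± 0.168 and -0.69 ± 0.325.

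Lineage genes of later stages were low or variable. Of 17 tested trophectoderm genes, 9 were positive. The tight junction gene Cldn4 was listed at 1, 0, 0, 0 and 0 TPM in mz_NrKO and at 0 to 13.8 TPM, median 4.5, in mz_DKO (1.96 ± 0.752). Of 7 tested primitive endoderm genes, 5 were positive with a median of 0.60, and Gata6, a defining factor of that lineage, differed by 1.41 ± 0.741. On 22 May alone Gata6 differed by -0.94. Of 43 polarity, adhesion and Hippo genes, 23 were positive, and the small GTPase gene Rac1 differed by 0.54 ± 0.219. Of 40 genes of the 2-cell burst, 16 were positive, and of 35 oocyte and maternal genes 18 were positive.

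Of 26 tested p53 targets, 13 were positive (median -0.02), and of 31 stress genes 15 were positive. Gadd45a, a growth arrest gene induced by DNA damage, measured 37.3, 43.2, 1.03, 3.05 and 0.479 TPM in mz_NrKO replicates 1 to 5, of which the first and second were collected on 17 June. In mz_DKO it ranged from 5.8 to 215 TPM with a median of 92.3. Embryos of 22 May were thus the low ones in mz_NrKO. The difference within date was 1.33 ± 0.591. Its relative Gadd45b differed by 1.15 ± 0.554 and the immediate early gene Egr1 by 1.14 ± 0.589.

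**Figure D3:**
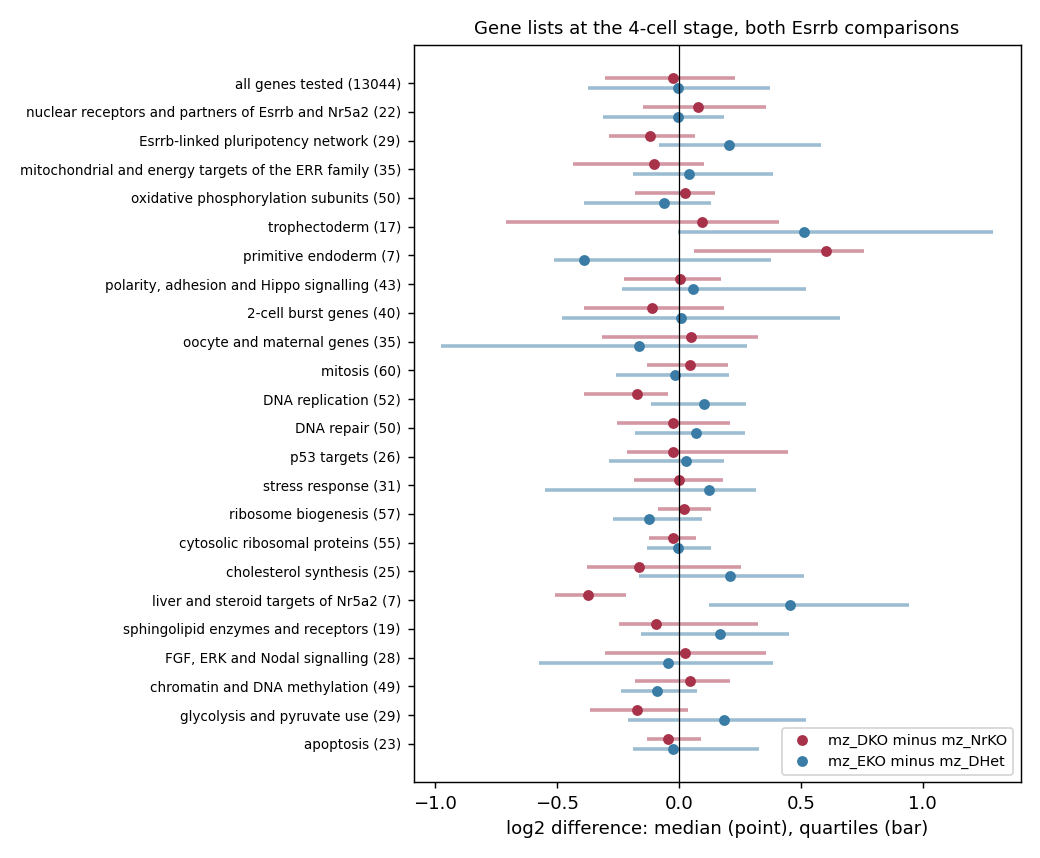
Difference between mz_DKO and mz_NrKO over gene lists at the 4-cell stage, as the median (point) and quartiles (bar) of the log2(TPM + 1) differences of the tested genes, beside the same for mz_EKO minus mz_DHet. The DNA replication list has a median of -0.17 against -0.02 over all genes tested, and no list holds a gene that passed.

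Genes were also grouped by their course in development. The stage labelled L2C is read here as late 2-cell. The controls compared were 7 z_NrHet embryos at that stage and 21 mz_DHet embryos at the 8-cell stage. Control genotype thus changed together with stage, and date was not in that fit. Of 754 tested genes that were at least 4-fold higher at the 8-cell stage, 294 (39%) were positive between mz_DKO and mz_NrKO, with a median of -0.16. In single embryos of 1 genotype, with both dates pooled, the median level of this group varied by 0.489 (SD). Without the date in the fit the median difference was 0.11. For 2069 tested genes that were at least 4-fold lower, the median was 0.01, and 1064 were positive. None of either group passed.

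Loss of Esrrb with Nr5a2 present gave no called gene either. Between mz_EKO and mz_DHet, limma called 0 of 13044 genes (0%) with a smallest adjusted p of 0.0855, and 803 (6.16%) had an unadjusted p under 0.05. The difference between both effects of Esrrb loss, tested as an interaction, called 0 of 13044 genes (0%), with 654 (5.01%) at an unadjusted p under 0.05 and a smallest adjusted p of 0.624. The median standard error of that interaction was 0.797, so only large differences between the backgrounds could have been called. Leaving mz_DHet replicate 2 out gave 1 call between mz_EKO and mz_DHet, the histone mRNA exonuclease gene Eri1 (-1.77 ± 0.297, adjusted p = 0.0311).

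Each Nr5a2-deficient genotype differed from the controls, and the comparisons share the mz_DHet libraries. In mz_NrKO 88 genes passed (0.675%), 34 higher (0.261%) and 54 lower (0.414%) than mz_DHet. In mz_DKO 336 passed (2.58%), 117 higher (0.897%) and 219 lower (1.68%). These counts moved with single libraries: without mz_NrKO replicate 1 or 2 the first was 31 or 27, and without mz_DHet replicate 4, 5 or 6 it was 54, 42 or 32. The second was 216, 220 or 212 without mz_DHet replicate 3, 4 or 5. Without mz_DHet replicates 1 and 2 and mz_DKO replicate 3 together, which have high levels of the macrophage gene Lyz2, the counts were 54 and 162. No gene of either set passed directly between mz_DKO and mz_NrKO, and the groups differ in size, so a larger count in mz_DKO is not shown to be a larger effect. The authors' deposited table, which tests each knockout against control at this stage, has 228 higher and 322 lower genes in mz_NrKO and 418 higher and 457 lower genes in mz_DKO by the rule of over 10 TPM, 1.5-fold and an FDR under 0.1. For mz_EKO the authors' deposited table has 39 higher and 45 lower genes by that rule.

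The levels of the genes called against controls in each mutant were followed one by one. These genes were chosen after their values were seen. Tead4, the transcription factor that starts the trophectoderm program, fell from 249 ± 49.4 TPM (SD, n = 6) in mz_DHet to 30.1 ± 16.5 (SD, n = 5) in mz_NrKO and 29.7 ± 19.2 (SD, n = 10) in mz_DKO. It averaged 209 ± 95.8 TPM (SD, n = 4) in mz_EKO. No embryo of either Nr5a2-deficient genotype reached the lowest control, which had 186 TPM. The difference from mz_DHet was -2.69 ± 0.503 in mz_NrKO (limma, adjusted p = 0.00924) and -3.46 ± 0.403 in mz_DKO (adjusted p = 1.13e-05). In the 5' reads neither difference from mz_DHet passed (adjusted p = 0.163 and 0.0671). The direct difference of Tead4 between the mutants was -0.76 ± 0.472 (95% confidence interval -1.73 to 0.20) within date, and 0.28 in the 5' reads.

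Other genes had a similar layout. Ppp1r16b, a regulatory subunit of protein phosphatase 1, fell from 52.5 ± 9 TPM in mz_DHet to 4.32 ± 3.1 in mz_NrKO and 3.12 ± 2.66 in mz_DKO, with 36.6 ± 17.4 in mz_EKO. The sorting and IGF2-clearing receptor gene Igf2r fell from 120 ± 6.91 TPM to 34.2 ± 13.9 and 38.1 ± 12.2, with 101 ± 9.99 in mz_EKO. No mz_NrKO or mz_DKO embryo exceeded 53.5 TPM for Igf2r, and every control embryo had at least 113 TPM. S1pr5, a sphingosine-1-phosphate receptor gene, rose from 12 ± 5.53 TPM to 65.7 ± 26.2 and 71.1 ± 18.6, with 20.5 ± 8.98 in mz_EKO. The call of Ppp1r16b in mz_NrKO was lost in 1 of 18 alternative analyses, that of Igf2r in 2 and that of S1pr5 in 1. Less firm in mz_NrKO were the mesendoderm factor Mixl1, lost in 14 of 17, and the ceramide synthase gene Cers2, lost in 13 of 18. Arginase 2 (Arg2) averaged 13.6 TPM in mz_DHet, 25.4 in mz_EKO, 60.2 ± 62.2 in mz_NrKO and 84.8 ± 45.2 in mz_DKO, and its mz_NrKO call was lost in 7 of 18. The epithelial adhesion gene Epcam averaged 173, 205, 286 ± 101 and 361 ± 91 TPM in that order, with its mz_NrKO call lost in 7 of 18.

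Direct differences between the mutants were then read for all such genes. Over the 69 genes called the same way in each mutant, the direct difference ran from -1.38 (Gm12551) to 0.95 (Proser2), and the interval lay within a 2-fold change for 25. The median direct difference was 0.24 for the 44 lower genes, whose median distance from mz_DHet was -2.14 in mz_NrKO and -1.73 in mz_DKO. It was -0.26 for the 25 higher genes, with 2.05 and 1.64. In both directions the median of mz_DKO lay nearer to mz_DHet, but this order turned with the choice of genes. Over the 88 genes called in mz_NrKO, the median absolute difference from mz_DHet was 2.099 in mz_NrKO and 1.56 in mz_DKO. Over the 336 genes called in mz_DKO, it was 1.398 in mz_NrKO and 1.577 in mz_DKO. Each choice of genes used the same libraries, so these medians are descriptions and do not show a shift toward mz_DHet. Of the 69 genes, 4 had an unadjusted p under 0.05, beside 385 of 13044 genes tested (2.95%), and none passed. Because the choice used these libraries, that count and the intervals of the single genes below are descriptions too. Vkorc1l1, a vitamin K epoxide reductase, averaged 100 TPM in mz_DHet, 24 ± 4.41 in mz_NrKO and 42.2 ± 10.1 in mz_DKO (direct 0.66 ± 0.267, 95% confidence interval 0.11 to 1.21). The p38 delta kinase gene Mapk13 averaged 20 TPM in mz_DHet, 114 ± 60.1 in mz_NrKO and 52.4 ± 13.1 in mz_DKO (direct -0.86 ± 0.367, 95% confidence interval -1.62 to -0.11). Proser2 averaged 58.2, 6.76 and 15.5 TPM in the same order.

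**Figure D4:**
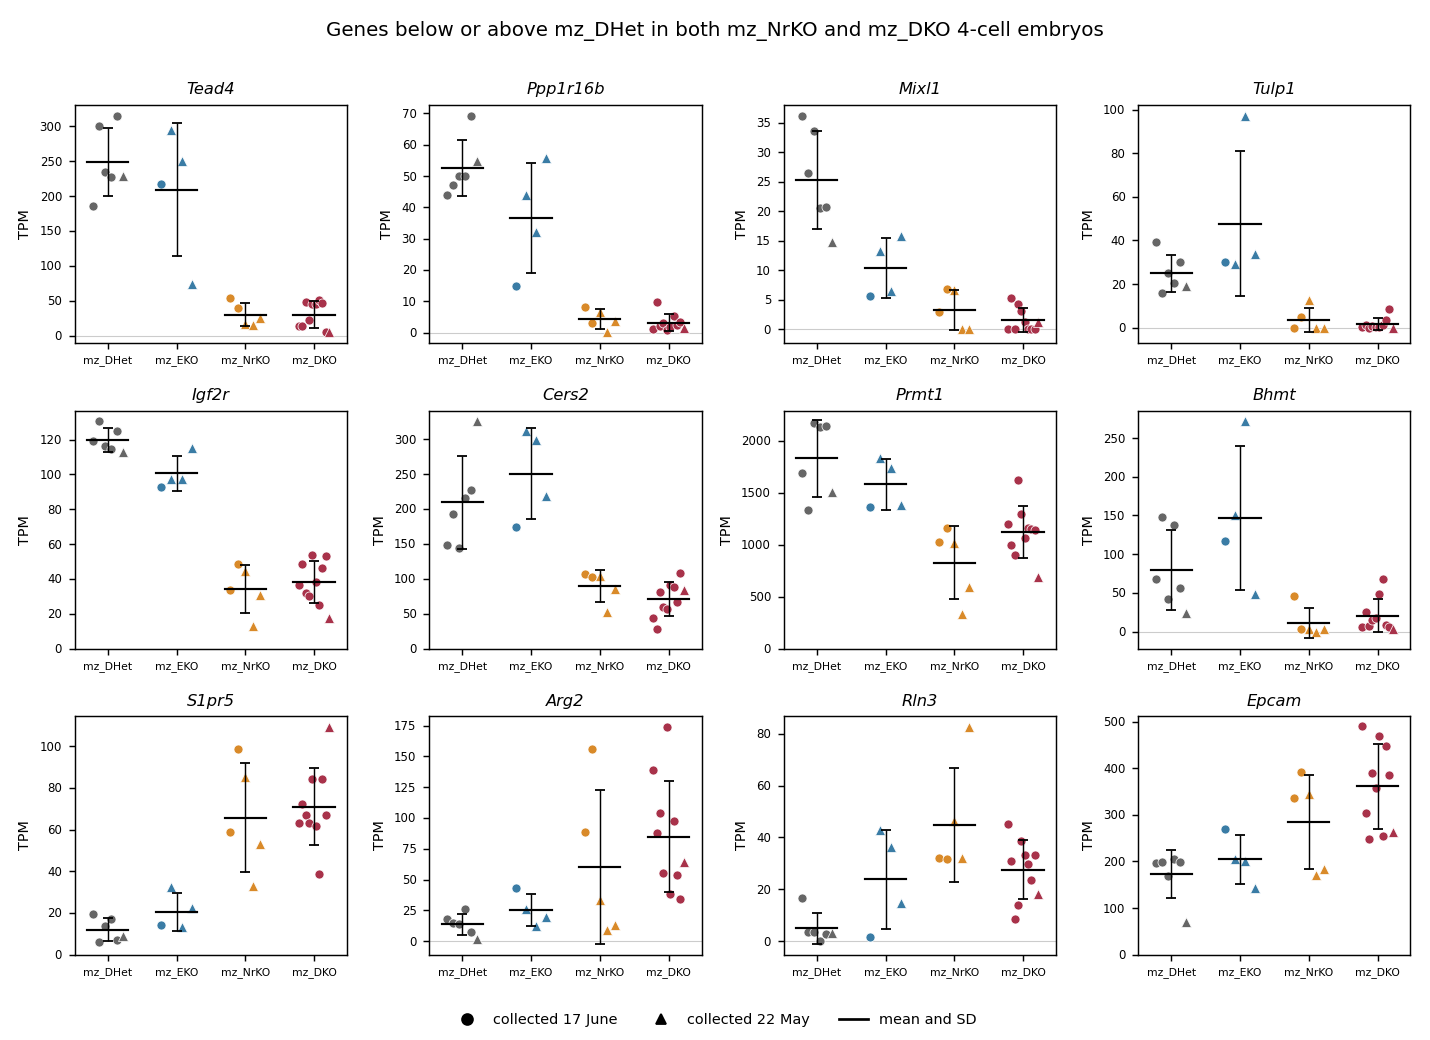
Genes that differed from mz_DHet in both Nr5a2-deficient genotypes at the 4-cell stage, in TPM per embryo by genotype and collection date, with the mean and SD of each group as lines. Tead4, at 15.5 to 53.9 TPM in mz_NrKO and 4.97 to 50.6 TPM in mz_DKO, lies below every control embryo, and the mz_NrKO and mz_DKO points overlap in each gene drawn.

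The promoters of these genes were read for the extended half-site because either receptor can recognise it. The motif AAGGTCA was searched on both strands in the 250 bases before each RefSeq start (GRCm38.p6), and it was present in 342 of 11406 promoters of tested genes (3%). TCAAGGTCA, which contains it, was present in 35 (0.307%). Of the 44 genes lower than mz_DHet in each mutant, 31 were matched, with 44 promoters, since some genes have several starts. Of these promoters, 3 (6.82%) held AAGGTCA, those of Dedd, Tlk2 and Bhmt. Of the 25 genes higher, 17 were matched, with 21 promoters. AAGGTCA was in 3 of these (14.3%), those of Rln3 and of the predicted genes Gm4513 and Gm4565. The values of these predicted genes were identical in the fit, so they are not independent. The longer TCAAGGTCA was in 1 of the 44 (2.27%) and 2 of the 21 (9.52%), the latter being Gm4513 and Gm4565. The lower genes with a match are shown. With such small numbers these shares are descriptions only, and a match is not evidence of binding. The stretches below are shown 5' to 3' on the gene's strand with 40 bases on each side of the match, and capitals mark AAGGTCA or its reverse complement TGACCTT.
Dedd: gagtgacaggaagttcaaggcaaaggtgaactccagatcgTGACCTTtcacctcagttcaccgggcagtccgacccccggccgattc
Tlk2: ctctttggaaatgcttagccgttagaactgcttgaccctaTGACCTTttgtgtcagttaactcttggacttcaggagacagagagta
Bhmt: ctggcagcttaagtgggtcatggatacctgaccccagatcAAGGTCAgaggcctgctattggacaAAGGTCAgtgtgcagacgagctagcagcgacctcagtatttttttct

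Dedd encodes a death effector domain protein, and its stretch lies at chr1:171328939-171329025 on the forward strand, with the match 166 bases before 1 of its RefSeq starts. Its level averaged 95.5 TPM in mz_DHet, 94.4 in mz_EKO, 40.7 ± 19.6 in mz_NrKO and 37.1 ± 12.4 in mz_DKO. The call in mz_NrKO was lost in 10 of 18 alternative analyses. Tlk2, a kinase of histone chaperone Asf1, has its stretch at chr11:105178676-105178762 on the forward strand, with the match 91 bases before 1 of its RefSeq starts. It averaged 108 ± 44.7, 74.1 ± 26.7, 15 ± 9.79 and 18.8 ± 6.75 TPM in the same order of groups, and in the 5' reads it did not pass in either mutant (largest adjusted p = 0.623 in mz_NrKO and 0.864 in mz_DKO). Bhmt, which remethylates homocysteine with betaine, has its stretch at chr13:93637760-93637871 on the reverse strand, with matches 73 and 48 bases before the start. It averaged 79.3 ± 51.5, 147 ± 93.3, 11.2 ± 19.4 and 20.3 ± 21.4 TPM, and its call in mz_NrKO was lost in 15 of 18 alternative analyses. None of the 3 differed between mz_DKO and mz_NrKO beyond the test's threshold.

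At the 8-cell stage the same comparison called 16 of 10876 genes (0.147%), 4 higher (0.0368%) and 12 lower (0.11%) in mz_DKO, over 10 embryos of each genotype. The count was 9 without mz_NrKO replicate 1 or without mz_DKO replicate 1, 27 without mz_NrKO replicate 3 and 36 without mz_NrKO replicate 6. In the 5' reads, which cover only 5 mz_NrKO and 9 mz_DKO embryos at this stage, it was 3: Esrrb, Spp1 and Lrr1. Read type and the embryos covered thus changed together. Of the mz_NrKO embryos with full-length reads, 3 were collected on 15 July 2022, a date without mz_DKO embryos. Of the 12 genes lower at the 8-cell stage, 10 had a negative difference at the 4-cell stage, with a median of -0.55 against -0.02 over all genes, and none passed there. The list was chosen in other embryos, and its median level varied by 0.452 (SD) between single 4-cell embryos of 1 genotype, with both dates pooled.

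Slc25a41, a mitochondrial carrier for ATP and phosphate, had the most negative difference at the 8-cell stage, -2.62 ± 0.37 (limma, adjusted p = 3.95e-05). At the 4-cell stage it measured 0 to 10.2 TPM in mz_NrKO and 0 to 8.34 TPM in mz_DKO (-1.24 ± 0.72). Ggt1, the gamma-glutamyl transferase of glutathione breakdown, fell by 1.94 ± 0.387 at the 8-cell stage and was listed at 0 in all 10 mz_DKO embryos of the 4-cell stage, with 4.03 ± 6.44 TPM (SD, n = 5) in mz_NrKO. On 17 June alone Ggt1 was at 0 in both groups, so this difference rests on 22 May, where mz_DKO has 1 library. Aacs, which activates acetoacetate for lipid synthesis, fell by 1.81 ± 0.296 at the 8-cell stage. At the 4-cell stage it stood at 18 ± 6.73 TPM in mz_NrKO and 11.7 ± 5.44 in mz_DKO (-0.46 ± 0.371), against 49.6 ± 12.9 in mz_DHet. Tead4 fell by 1.43 ± 0.289 at the 8-cell stage.

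The genes higher at the 8-cell stage are given singly. Spp1, a secreted phosphoprotein, rose by 3.11 ± 0.631 on the log2 scale at the 8-cell stage and did not reach the expression filter at the 4-cell stage. Arl2bp, a binding partner of the small GTPase ARL2, rose by 1.79 ± 0.401 and differed by 0.18 ± 0.395 at the 4-cell stage. Erlin1, an endoplasmic reticulum lipid-raft protein, rose by 1.62 ± 0.343 and differed by 0.23 ± 0.401. Ugcg, the glucosylceramide synthase, rose by 0.94 ± 0.182 and differed by -0.13 ± 0.241. Tested as a difference between the stages, the effect of Ugcg was 1.07 higher at the 8-cell stage (limma, unadjusted p = 0.000491, adjusted p = 0.435). Over all 9942 genes tested at both stages, 0 passed that test (0%), with 552 (5.55%) at an unadjusted p under 0.05.

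The RefSeq promoters of the genes lower at the 8-cell stage held AAGGTCA in 1 of 15 cases (6.67%), that of Tmem191c, a transmembrane protein gene. Its stretch lies at chr16:17276074-17276160 on the forward strand, holds the longer TCAAGGTCA on the other strand and has the match 186 bases before the start.
Tmem191c: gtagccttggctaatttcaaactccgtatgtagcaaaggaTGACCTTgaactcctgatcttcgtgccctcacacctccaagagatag

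Tmem191c averaged 46.1 ± 22.8 TPM in mz_NrKO and 20.8 ± 9.93 TPM in mz_DKO at the 8-cell stage (SD, n = 10 each). At the 4-cell stage it averaged 58.5 ± 37.4 TPM (SD, n = 5) and 36.7 ± 23 TPM (SD, n = 10), a difference of -0.48 ± 0.505.

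**Figure D5:**
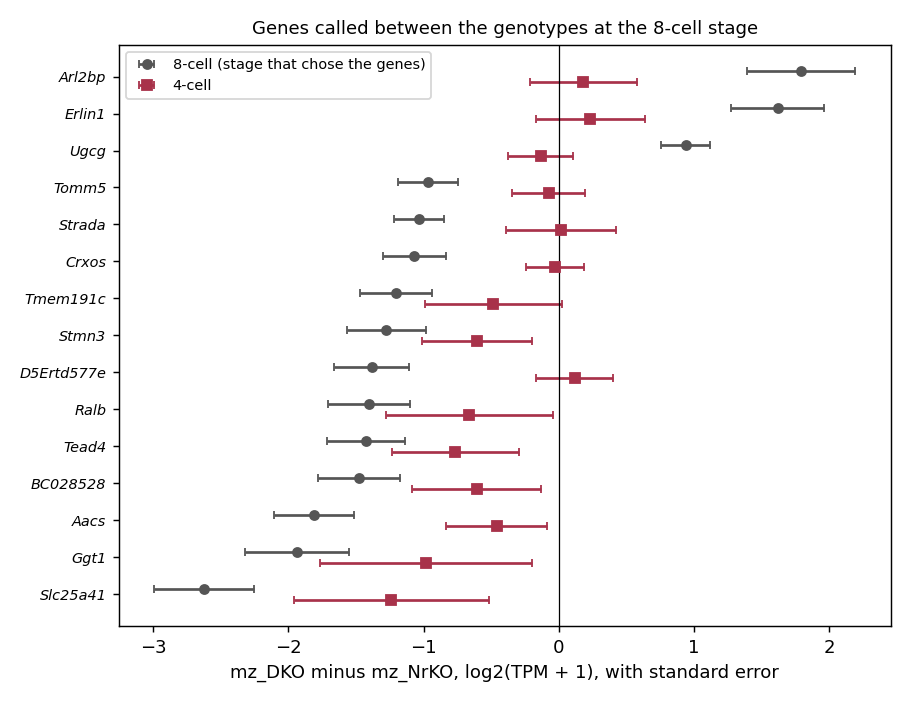
Differences between mz_DKO and mz_NrKO at the 8-cell and 4-cell stages for the genes called at the 8-cell stage, in log2(TPM + 1) with standard errors. The 8-cell values chose the genes and are shown as a description. The 4-cell points lie nearer to 0, from -1.24 for Slc25a41 to 0.23 for Erlin1, and none passed.

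At the late 2-cell stage, the comparison of 6 mz_DKO with 10 mz_NrKO embryos called 0 of 14147 genes (0%), with 1409 (9.96%) at an unadjusted p under 0.05. Leaving out mz_DKO replicate 1 or 4 gave 1 call, the cell surface gene Mpzl1, at -2.30 or -2.51. The difference of the effect between the 4-cell and late 2-cell stages called 0 of 12373 genes (0%), with 714 at an unadjusted p under 0.05. Esrrb in 5' reads at the late 2-cell stage ranged from 0 to 63.8 TPM in mz_NrKO and from 2.09 to 12.4 TPM in mz_DKO (-1.28 ± 0.771; limma, adjusted p = 0.649), and those ranges overlapped. Esrrb at the 8-cell stage differed between mz_EKO and mz_DHet by -3.88 ± 0.226 in 5' reads, and in full-length reads it was the 1 called gene of 10876 (0.00919%), with 257 (2.36%) at an unadjusted p under 0.05.

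Genes near Esrrb were counted because mz_DKO and mz_NrKO embryos may also differ in DNA linked to the Esrrb allele. Esrrb lies on chromosome 12 from 86361117 to 86521628 in the GENCODE annotation of GRCm38, which gave all gene positions here. Of 136 tested genes within 10 Mb, 0 passed and 4 had an unadjusted p under 0.05 (2.94%, against 2.95% over all genes tested). The smallest p among them was that of the predicted gene Gm21936, at 11.2 TPM in mz_NrKO and 0.553 TPM in mz_DKO (-2.96 ± 0.709; limma, unadjusted p = 0.000264, adjusted p = 0.9999). Cipc, a regulator of the circadian clock protein CLOCK, was among them at 14.4 TPM in mz_NrKO and 2.59 TPM in mz_DKO (-1.35 ± 0.536), and the cargo receptor gene Tmed10 was another at 123 and 132 TPM (0.38 ± 0.182). The last was 4933406B15Rik (-1.08 ± 0.428). These 4 genes were named after their values were seen.

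The libraries of both genotypes were alike in breadth. Between 12573 and 15477 genes exceeded 1 TPM in mz_NrKO and between 13891 and 15430 in mz_DKO. Read depth is unknown because the values are TPM. Embryo markers were present in both groups, with Obox6, a homeobox gene of cleavage embryos, at 2060 to 4640 TPM in mz_NrKO and 1240 to 2560 TPM in mz_DKO, and the oocyte gene Zp3 at 93.6 to 240 and 95.1 to 241 TPM. Of the cumulus and granulosa markers, 7 of 21 were at 0 in all 15 embryos, Ptx3, Fshr, Inha and Lhcgr included. Their summed level ran from 339 to 824 TPM in mz_NrKO and from 283 to 814 TPM in mz_DKO, where Gja1, which embryos also express, led the sum. Within date the sum in mz_DKO minus that in mz_NrKO was -186 TPM (exact permutation p = 0.0682, adjusted over 13 measures 0.295). The part of such cells in the results was not tested. Of the blood markers, 7 of 14 were at 0 throughout, and mz_DKO replicate 3 stood out with a sum of 2230 TPM. Among the controls, mz_DHet replicates 1 and 2 had sums of 3670 and 1398 TPM, and the other 4-cell libraries had 45.6 TPM or less. Without these 3 libraries 0 genes passed between mz_DKO and mz_NrKO, with 361 at an unadjusted p under 0.05 (limma).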

How the data were processed

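Single-embryo libraries were made from polyA RNA, and the authors deposited 1 table of full-length reads and 1 of 5' UMI reads, each in TPM per gene, per the file headers. Per the submitters' processing notes the authors used cutadapt, STAR, RSEM and DESeq2 with mm10; versions are not given in the sources used here. TPM keeps no depth, so read depth is unknown. The authors' deposited table gives log2 fold changes and p-values (FDR) for each knockout against control, and it was used for counts of genes only.

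Here, 65 entries without a gene name were left out of the full-length table, leaving 55168 genes. Tested were the genes that reached 5 TPM in 4 or more of the 25 libraries, using limma 3.58.1 (R 4.3.3, trend, two-sided, Benjamini-Hochberg threshold 0.05) on log2(TPM + 1), with genotype and collection date as factors and all 4 genotypes sharing 1 spread (20 residual degrees of freedom). At the 8-cell and late 2-cell stages the filter asked for 10 and 6 libraries. The late 2-cell fit also held 7 embryos labelled z_NrHet and 6 labelled z_NrKO. A difference on this scale understates the change of genes of low expression. Adjusted p-values run over all genes tested, and the fit was tested on simulated data. For single values, an exact permutation test of libraries within date used 220 permutations, with a smallest possible p of 0.00455. Whether embryos were littermates is not stated in the labels. The p-values therefore refer to the variation among the embryos sequenced. No library columns were identical (0 pairs), and genes of the mitochondrial genome were not analysed here.

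Named genes were the receptors, the genes with the smallest unadjusted p in each direction with the same sign on both dates and at least 10 TPM (since none passed), up to 3 of each list by unadjusted p, and genes called at the 8-cell stage. The comparison, the gene lists and these rules were chosen with earlier results of these data known. Promoters came from RefSeq (GRCm38.p6), with 8965 of 13044 tested genes matched. Alternatives were other pseudocounts, filters and scalings, single dates, UMI reads, library weights, the label's library number as a block, and leaving out each library.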

Additional observations from a re-analysis of the deposited data

Results flagged for a closer look

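Within the mz_NrKO and mz_DKO embryos of the 4-cell stage, 160 groups of values were searched for 1 embryo far from the others, by the gap to its nearest neighbour over the range, and 13 were found. Chance gives about 1 in 20. The 1 mz_DKO embryo of 22 May, replicate 10, accounts for 6 of them. Its Snapc2 level was 353 TPM, with the next embryo at 174. Its levels were the lowest of the group for Nid2 (0.942 TPM, next 7.52), Ppard (10.8, next 25.3), Zfp640 (0.706, next 19.6), Ddx47 (174, next 257) and Ugcg (33.2, next 62.4). Date is in the fit for these genes, as 1 term shared by all genotypes. With 1 mz_DKO embryo on that date, its own deviation and a date effect particular to mz_DKO cannot be told apart.

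In mz_NrKO, Phf5a stood at 405 TPM in replicate 3 (next 283), Utp14a at 113 TPM in replicate 1 (next 204) and Snora34 at 0 in replicate 4 (next 13.2). Cldn4 stood at 1 TPM in replicate 1, with 0 in the other embryos. Esrrb in 5' UMI reads was 0 in mz_NrKO replicate 4 (next 11.9 TPM), although its full-length level there was 9.89 TPM. The summed blood markers reached 2230 TPM in mz_DKO replicate 3 (next 38.3), nearly all of it Lyz2. The summed Y-linked genes reached 95.3 TPM in mz_NrKO replicate 1 (next 16.5).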

How the results depend on the processing

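The absence of calls between mz_DKO and mz_NrKO held in 37 of 39 alternative analyses. On 22 May alone, with 1 mz_DKO embryo assumed to vary like the other groups, 12 genes passed, 11 higher and 1 lower, among them Kpna2, Myh7 and Olfr1513. Leaving out single libraries gave 0 to 1 calls, the 1 being Gm24157 without mz_NrKO replicate 3 (4.34, adjusted p = 0.0233, limma). The library number in the labels did not pair embryos: correlations of same-numbered deviations ran from -0.116 to 0.058, and 2 of 5 correlated best with their own number. The replicate block gave 0 calls for mz_DKO against mz_NrKO, for mz_EKO against mz_DHet and for the interaction. It gave 8 calls for mz_NrKO and 118 for mz_DKO against mz_DHet, and leaving out the 3 libraries with high blood markers gave 54 and 162.

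Without the date factor, mz_EKO against mz_DHet gave 1 call (Eri1, -1.82) and the interaction 1 (Zfp125, 4.10). Leaving out single libraries gave 0 to 1 for mz_EKO and 0 to 0 for the interaction. Against mz_DHet, mz_NrKO had 88 calls, 26 without a filter, 17 in UMI reads and 27 to 91 without single libraries. For mz_DKO the 336 calls became 188 without a filter, 214 without the date factor, 125 in UMI reads and 212 to 325 without single libraries. At the 8-cell stage the 16 calls became 7 without the date factor, 3 in UMI reads, which cover fewer embryos, and 9 to 36 without single libraries. At the late 2-cell stage leaving out single libraries gave 0 to 1. These causes were not tested. All leave-outs of controls, of the libraries with high blood markers and of 8-cell and late 2-cell libraries were chosen after seeing the data. The median of genes rising to the 8-cell stage was 0.114 without the date factor. No scaling moved the median of all genes by over 0.1.

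Single genes turned sign or fell to 0 in 23 of 2719 alternative values. Without the date factor these were Nr5a2 (0.065), Zfp640 (0.265), Ddx47 (0.0576) and Ugcg (0.421). In UMI reads they were Esrra (-0.137), Snora34 (0.853), Ncapd2 (0.414), Tead4 (0.281) and Erlin1 (-0.0272), and in the replicate block Esrra (-0.223), Fgf4 (0.174) and Etfb (0.0195). On 17 June alone they were Nr5a2 (0.0171), Esrra (-0.141), Idh3a (-0.029), Ugcg (0.17) and Arl2bp (-0.0741). Ggt1 is counted there too, but its value was 0 and had no sign. On 22 May alone they were Gata6 (-0.936), Slc25a41 (0.217) and Erlin1 (-0.582). Without single libraries Erlin1 ran from -0.0384 (mz_NrKO replicate 2) to 0.514 and Arl2bp from -0.0324 (mz_DKO replicate 10) to 0.355. Sample number and the date layout limit precision, and depth is unknown.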
